A study of Mus musculus with 10 samples.

Results

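H3K27me3 peaks over the posterior genes of the Hoxa cluster, namely Hoxa6, Hoxa7, Hoxa9, Hoxa10, Hoxa11 and Hoxa13, were described in 5 lines of a mouse B-cell lymphoma. The genes were chosen by symbol in the GENCODE annotation of mm9, where all 6 were found among 37310 annotated genes, 22380 of them protein-coding. The parental line came from a lymphoma of an Eμ-Myc Cdkn2a-/- mouse, a model whose B cells overexpress Myc from the Eμ enhancer and lack Cdkn2a. The lines R100, R500, R1000 and R4000 came from it by culture in rising doses of mafosfamide, an alkylating agent that is active in culture, and were harvested at 100 nM on day 10, at 500 nM on day 18, at 1000 nM on day 23 and at 4000 nM on day 37. All 5 lines therefore share the Myc transgene and the loss of Cdkn2a, and all were grown without the drug for ChIP-seq. The processed data are 1 list of peaks per line, which holds positions alone, without heights, scores or read counts. The study made biological replicates of the ChIP-seq, but each line has 1 list here, so the spread between replicates was not measured and no difference between lines was tested, and the read depth behind each list is unknown.

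Hox genes encode homeodomain transcription factors that set position along the body axis, and their order on the chromosome follows their order of use along that axis. Outside the segments and cell types that use them they are kept silent by Polycomb complexes. PRC2 places the trimethyl mark on lysine 27 of histone H3, which can extend over long stretches of a Hox cluster, while complexes of the MLL family oppose it. In blood, Hoxa9 and Hoxa10 are used by stem and progenitor cells and are turned down as cells mature. Hoxa9 acts with the cofactors Meis1 and Pbx3 in myeloid leukaemia, and Hoxa11 and Hoxa13 are best known for patterning the limb and the reproductive tract.

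The amount of mark was read as covered bases, that is, the bases of a gene's window that lie in distinct peaks. A window runs from 5 kb upstream of the transcription start site (TSS), taken as the outermost 5′ end of the gene, to the gene end. A gene was counted as covered where peaks held at least 150 bp of its window, which is 3 of the bins of 50 bp on which the peaks were called. All 6 genes lie on the minus strand of chromosome 6, so that upstream means higher coordinates. From the 3′ side of Hoxa6 the windows are chr6:52155430-52166355 for Hoxa6, chr6:52164490-52176853 for Hoxa7, chr6:52173099-52186088 for Hoxa9, chr6:52181196-52195853 for Hoxa10, chr6:52192107-52201213 for Hoxa11 and chr6:52207693-52215874 for Hoxa13 in mm9. The windows from Hoxa6 to Hoxa11 overlap their neighbours. The share of a window that also lies in another member's window was 66.6% for Hoxa9, 58.9% for Hoxa10, 45.5% for Hoxa7, 41.1% for Hoxa11, 17.1% for Hoxa6 and 0% for Hoxa13, so the 6 genes are not independent measurements. Counted once, the windows hold 54.0 kb.

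The comparisons turn on which bases lay in peaks in which lines, and 5 sequences show the kinds of base concerned. They were read from the NCBIM37 (mm9) genome on the minus strand, 5′ to 3′, in lower case with each CG dinucleotide in capitals. CG reads the same on both strands, and 93.9% of the 22375 stretches of 300 bases upstream of protein-coding genes hold at least 1, with a median of 10. The first is the stretch before the start of the main coding transcript of Hoxa10, that with the longest coding sequence (chr6:52184939-52185238, 20 CG), shown because it held no parental peak and lay wholly in peaks in R100, R500 and R4000. It lies within the annotated Hoxa10 gene, whose outermost 5′ end is a longer transcript, and in no exon. The next is the same stretch of Hoxa13 (chr6:52210875-52211174, 41 CG, outside any gene), shown because it is the richest in CG of the 6 and held no peak in any line. The remaining sequences, of 250 bases each, come from bases covered in all 5 lines (chr6:52183125-52183374, in a noncoding exon of Hoxa10), in R100 and R500 only (chr6:52194175-52194424, within Hoxa11 and its antisense gene Hoxa11as, with 33 bases in an exon of the latter) and in the parental line only (chr6:52164025-52164274, in an exon of the antisense gene 2700086A05Rik).
Hoxa10 upstream: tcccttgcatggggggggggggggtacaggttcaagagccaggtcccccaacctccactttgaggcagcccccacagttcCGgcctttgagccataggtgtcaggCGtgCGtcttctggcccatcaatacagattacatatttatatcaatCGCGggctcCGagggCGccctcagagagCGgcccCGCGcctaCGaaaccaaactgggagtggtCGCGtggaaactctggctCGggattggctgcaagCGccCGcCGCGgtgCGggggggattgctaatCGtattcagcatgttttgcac
Hoxa13 upstream: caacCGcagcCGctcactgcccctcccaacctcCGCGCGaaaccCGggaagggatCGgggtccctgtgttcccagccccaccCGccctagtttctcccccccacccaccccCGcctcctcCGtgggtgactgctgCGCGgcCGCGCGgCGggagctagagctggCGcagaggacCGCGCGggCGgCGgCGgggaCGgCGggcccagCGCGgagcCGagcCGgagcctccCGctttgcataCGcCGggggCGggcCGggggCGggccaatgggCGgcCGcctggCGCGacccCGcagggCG
All 5 lines: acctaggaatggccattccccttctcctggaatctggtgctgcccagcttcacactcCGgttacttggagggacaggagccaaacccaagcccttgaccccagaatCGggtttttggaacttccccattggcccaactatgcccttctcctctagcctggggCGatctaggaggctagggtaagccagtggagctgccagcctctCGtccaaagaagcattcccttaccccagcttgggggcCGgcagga
R100 and R500 only: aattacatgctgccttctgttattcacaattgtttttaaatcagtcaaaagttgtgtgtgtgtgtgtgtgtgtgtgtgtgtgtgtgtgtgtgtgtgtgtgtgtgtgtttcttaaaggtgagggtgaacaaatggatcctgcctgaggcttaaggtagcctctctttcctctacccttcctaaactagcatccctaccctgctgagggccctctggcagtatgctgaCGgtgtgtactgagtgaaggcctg
Parental only: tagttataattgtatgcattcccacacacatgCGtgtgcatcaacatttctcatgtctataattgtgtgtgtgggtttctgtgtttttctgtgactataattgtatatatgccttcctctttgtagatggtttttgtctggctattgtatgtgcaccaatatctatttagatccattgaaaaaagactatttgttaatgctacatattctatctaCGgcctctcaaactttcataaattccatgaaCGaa
The GC content of these sequences was 60.7% for Hoxa10 upstream, 78.3% for Hoxa13 upstream, 58.4% for the bases in all 5 lines, 46.8% for those in R100 and R500 only and 34.0% for the parental-only bases. The R100 and R500 sequence holds a long run of gt repeats.

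All 6 genes were covered in all 5 lines, against 4.35% of the protein-coding genes. Together their windows were covered over 28.7 kb in parental cells, 38.9 kb in R100 cells, 39.3 kb in R500 cells, 27.6 kb in R1000 cells and 22.1 kb in R4000 cells, or 53.2%, 72.1%, 72.9%, 51.2% and 41.0% of their length. Coverage was thus higher in the low-dose lines R100 and R500 than in the parental line, near the parental level in R1000 and lowest in R4000. The ratio to the parental line was 1.36 in R100 and 1.37 in R500. It was 0.962 in R1000 and 0.770 in R4000. Intervals at 95% from Wilson limits on the bins of 50 bp ran from 1.22 to 1.51 for R100, 1.23 to 1.52 for R500, 0.856 to 1.08 for R1000 and 0.680 to 0.872 for R4000. They cover counting of bins alone, measure no spread between replicates, and are too narrow in that neighbouring bins are not independent. They also treat the 2 lists as separate counts, although the same bins are compared and 90.8% of parental bases were covered in R100 too. Over the whole lists, which hold 10778, 25180, 21888, 9595 and 6820 distinct peaks in the order parental to R4000, the ratio of covered bases was 3.09 in R100 cells, 2.78 in R500 cells, 0.988 in R1000 cells and 0.658 in R4000 cells. The 6 windows held 1.76% of all covered bases of the parental list, 0.773% in R100 cells, 0.868% in R500 cells, 1.71% in R1000 cells and 2.06% in R4000 cells.

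**Figure D1:**
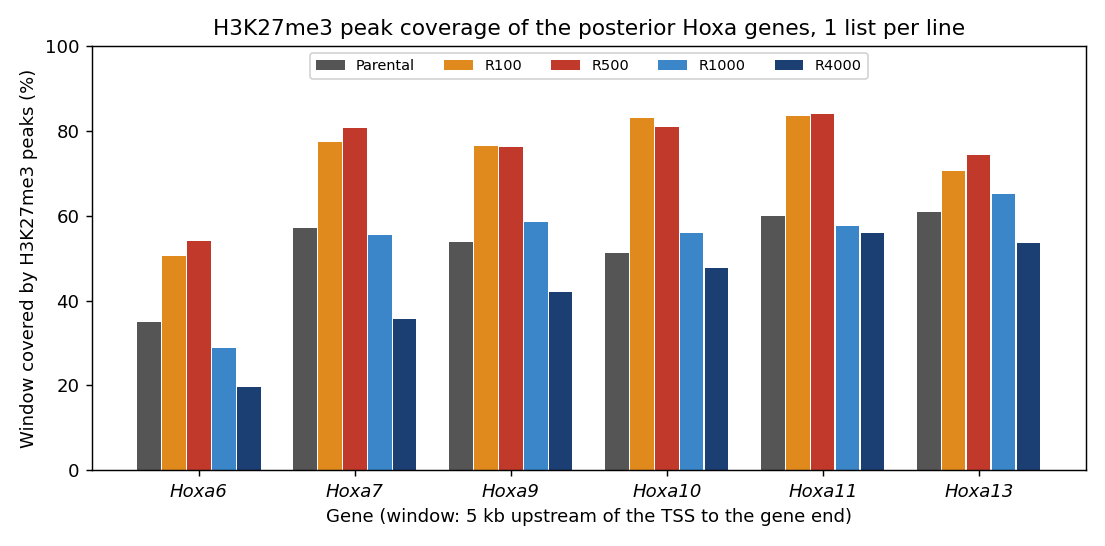
Percent of each gene's window covered by H3K27me3 peaks (y axis) for the 6 genes (x axis) in the 5 lines, with 1 bar per list and no replicates. R100 and R500 stand above the parental bar for every gene, and R4000 is the lowest bar for every gene.

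Hoxa6, the most anterior of the 6, had the smallest covered share in each line. Its window of 10926 bp was covered over 3805 bp in parental cells (34.8% of the window), 5505 bp in R100 cells (50.4%), 5905 bp in R500 cells (54.0%), 3155 bp in R1000 cells (28.9%) and 2150 bp in R4000 cells (19.7%). The low-dose lines were above the parental line and both high-dose lines below it, with ratios of 1.45, 1.55, 0.829 and 0.565 from R100 to R4000. Within 500 bp of the start of its main coding transcript, Hoxa6 had 21 bp covered in parental cells, 521 bp in R100 cells, 571 bp in R500 cells, 150 bp in R1000 cells and 100 bp in R4000 cells. The annotated gene itself was covered over 9.28% of its length in the parental line, and the 5 kb upstream over 65.1%. The edge of the covered stretch lay within the Hoxa6 gene, near the start of its main coding transcript at 52158721. No line had a peak in the last 2971 bp of the gene (chr6:52155430-52158400). The peaks began at 52159201 in parental cells, 52158401 in R100 and R500 cells, 52159051 in R1000 cells and 52159001 in R4000 cells. In the parental line, R1000 and R4000 the first peak thus lay upstream of that start, and no base of the main coding transcript lay in a peak.

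Hoxa7 was covered over 7061 bp of 12364 bp in parental cells (57.1%), 9564 bp in R100 cells (77.4%), 9964 bp in R500 cells (80.6%), 6853 bp in R1000 cells (55.4%) and 4403 bp in R4000 cells (35.6%). R4000 was far below the other 4 lines, at 0.624 of the parental coverage, while R1000 was at 0.971. The 1000 bp centred on the start of its main coding transcript did not share this difference. In the parental line peaks held 850 of them, and in each resistant line all 1000. The part upstream of the gene had 1900 bp in the parental line against 1453 bp in R4000, and the gene itself 5161 bp against 2950 bp. The widest R4000 peak over the 6 genes, of 1400 bp (chr6:52167001-52168400), spanned this start.

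Hoxa9, which sustains self-renewal in blood progenitors, was covered over 7000 bp of 12990 bp in parental cells (53.9%), 9938 bp in R100 cells (76.5%), 9888 bp in R500 cells (76.1%), 7588 bp in R1000 cells (58.4%) and 5452 bp in R4000 cells (42.0%). R1000 lay above the parental line by a ratio of 1.08, and R4000 below it by 0.779. The 1000 bp centred on the start of its main coding transcript had 219, 600, 600, 231 and 81 bp covered from the parental line to R4000, so that only the low-dose lines had most of it in peaks. The 300 bases upstream of that start are poor in CG, with 3 of them, and held 0 bp of peaks in the parental line, R1000 and R4000 and 19 bp in R100 and R500. Within the Hoxa9 gene lies Mir196b, a microRNA gene of 85 bp (chr6:52180080-52180164). Its 85 bp lay wholly in peaks in the parental line, R100 and R500, and 0 bp lay in peaks in R1000 and R4000.

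Hoxa10, also a factor of blood progenitors, had the largest ratio of the 6 genes in R100. It was covered over 7503 bp of 14658 bp in parental cells (51.2%), 12153 bp in R100 cells (82.9%), 11853 bp in R500 cells (80.9%), 8203 bp in R1000 cells (56.0%) and 7003 bp in R4000 cells (47.8%). The ratios to the parental line were 1.62, 1.58, 1.09 and 0.933 from R100 to R4000. Of the 1000 bp centred on the start of its main coding transcript, 112 bp were covered in parental cells, all 1000 bp in R100 and R500 cells, 612 bp in R1000 cells and 650 bp in R4000 cells. Coverage of the start thus stayed above the parental level in the high-dose lines, although coverage of the whole window in R4000 did not. The longest stretch that entered the peaks of R100 and R500 from outside the parental peaks spans this start (chr6:52184551-52185500, 950 bp). It contains the Hoxa10 sequence shown above.

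Hoxa11 was the gene with the largest covered share of its window in R100, R500 and R4000. It was covered over 5450 bp of 9107 bp in parental cells (59.8%), 7600 bp in R100 cells (83.5%), 7650 bp in R500 cells (84.0%), 5250 bp in R1000 cells (57.6%) and 5100 bp in R4000 cells (56.0%). The parental, R1000 and R4000 values span 350 bp, or 7 bins, and the ratios to the parental line were 1.39, 1.40, 0.963 and 0.936 from R100 to R4000. Its start was covered in every line, over 987, 1000, 1000, 787 and 937 bp of 1000 bp from the parental line to R4000. Between the parental line and R100, coverage of the gene itself differed more (1963 against 3813 bp) than that of the part upstream (3487 against 3787 bp). The antisense gene Hoxa11as overlaps Hoxa11, and peaks carry no strand, so their marks cannot be told apart.

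Hoxa13, the gene at the posterior end, had the narrowest range of ratios to the parental line. It was covered over 4974 bp of 8182 bp in parental cells (60.8%), 5774 bp in R100 cells (70.6%), 6074 bp in R500 cells (74.2%), 5324 bp in R1000 cells (65.1%) and 4374 bp in R4000 cells (53.5%). The ratios to the parental line were 1.16, 1.22, 1.07 and 0.879 from R100 to R4000. Most of the difference lay in the gene, with 1400 bp covered in parental cells, 2000 bp in R100 cells, 2200 bp in R500 cells, 1900 bp in R1000 cells and 1050 bp in R4000 cells. The 5 kb upstream of Hoxa13 were covered over 3324 bp in R4000 and 3874 bp in R500, with the other lines between them. They include 1000 bp in peaks of all 5 lines (chr6:52211851-52212850). The 300 bases just before its start, shown above, were covered in none.

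The peaks themselves differed between lines in number and width. Over the 6 windows the parental list had 53 peaks with a median width of 350 bp, R100 had 30 (925 bp), R500 had 35 (800 bp), R1000 had 55 (350 bp) and R4000 had 62 (225 bp). Low-dose lines thus had fewer and wider peaks, and R4000 had more and narrower ones. The widest peak measured 2250 bp in parental cells (chr6:52181551-52183800, over Hoxa10), 4950 bp in R100 cells, 4900 bp in R500 cells, 3300 bp in R1000 cells and 1400 bp in R4000 cells. R100 had 2 peaks of 4950 bp, one over Hoxa10 (chr6:52181751-52186700) and one over Hoxa11 (chr6:52192401-52197350). Of the 12850 bp that R100 covered beyond the parental peaks, 10950 bp (85.2%) lay in gaps between parental peaks no more than 1000 bp apart. In R500 this was 10650 of 12700 bp (83.9%). In both lines 14 peaks took in at least 2 parental peaks each, and the most taken in by 1 peak was 6. With peaks within 1000 bp joined beforehand, the ratio to the parental line was 1.05 in R100 and 1.06 in R500.

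**Figure D2:**
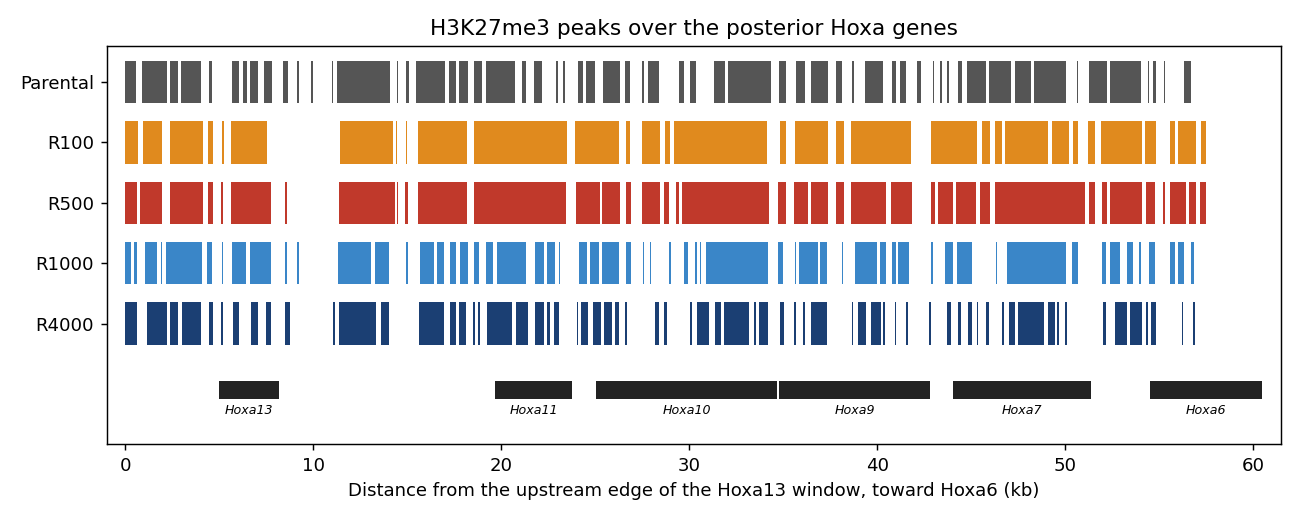
Peaks of each line (coloured blocks, 1 row per line) and the annotated genes (black bars), against the distance in kb from the upstream edge of the Hoxa13 window. Gaps between parental peaks are filled in R100 and R500, where the widest peaks measure 4950 and 4900 bp, and R4000 shows 62 narrow peaks in the windows.

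Of the 53 parental peaks over the 6 genes, 51 overlapped a peak in R100 cells, 52 in R500 cells, 44 in R1000 cells and 39 in R4000 cells. The widest absent one was 200 bp in R100 and R500 and 350 bp in R1000 and R4000. The loss in R4000 was therefore mostly from within peaks that were still present. Of the 11100 parental bases not covered there, 2350 bp belonged to the 14 absent peaks. Of parental bases over the 6 genes, 90.8% were covered in R100 cells, 92.7% in R500 cells, 70.8% in R1000 cells and 61.4% in R4000 cells. In the rest of the lists the same shares were 53.8%, 56.8%, 34.2% and 24.1%. In the windows of the other 967 genes covered in all 5 lines they were 70.5%, 73.8%, 47.6% and 35.3%. Bases of the 6 genes were thus kept more often than parental bases elsewhere in each resistant line. Parental peaks over the 6 genes were also wider, with a median of 350 bp against 100 bp in the whole list. The windows were densely covered too. The part of peak width and of dense coverage in these shares was not tested.

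Bases covered in both R100 and R500 but not in the parental line came to 11400 bp over the 6 genes. Of these, 58.8% were covered in R1000 and 35.5% in R4000, and 30.3% (3450 bp) in neither. In the rest of the lists 26.8% of such bases were covered in R1000 and 18.9% in R4000, and 63.5% in neither. Over the 967 other genes the values were 32.3%, 24.1% and 55.9%. The share kept at high dose was again larger over the 6 genes. For scale, peaks held 51.2% of all bases of the 6 windows in R1000 and 41.0% in R4000. The part of this dense coverage in the shares was not tested. Of the 4500 bp covered in R4000 and not in the parental line, 4300 bp were also covered in R100 or R500. R1000 or R4000 alone held 450 bp, and the parental line alone held 1200 bp, or 4.18% of its covered bases. R100 and R500 shared 89.6% of the bases covered in either line over the 6 genes, against 34.4% over the whole lists.

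Bases in peaks of all 5 lines made up 26.4% of the windows (14274 bp), and bases in no peak 19.7% (10642 bp). By gene the share in all 5 lines was 9.15% for Hoxa6, 20.6% for Hoxa7, 26.2% for Hoxa9, 28.0% for Hoxa10, 40.1% for Hoxa11 and 40.6% for Hoxa13. It increased from the anterior to the posterior end, although neighbouring windows share bases. The ratio of R4000 to the parental line did not follow the same order throughout, since Hoxa11 (0.936) and Hoxa10 (0.933) were above Hoxa13 (0.879). The longest stretch in all 5 lines was 1100 bp in Hoxa10 (chr6:52182701-52183800), and the third was 800 bp of Hoxa11 exons (chr6:52195301-52196100). In the 6479 bp between the windows of Hoxa11 and Hoxa13, 3450 bp were covered in parental cells, 2900 bp in R100 cells, 3150 bp in R500 cells, 2750 bp in R1000 cells and 2850 bp in R4000 cells. The parental line was the highest there, unlike in any of the 6 windows.

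Around the starts of the main coding transcripts, the order of the lines depended on the distance. Pooled over the 6 genes, the 250 bp beginning 500 bp before the start were covered over 50.1% in parental cells, 92.9% in R100 cells, 92.9% in R500 cells, 57.4% in R1000 cells and 64.1% in R4000 cells. The last 250 bp before the start, pooled likewise, had 350 bp covered in the parental line (23.3%), 771 bp in both R100 and R500 (51.4%), 475 bp in R1000 cells and 750 bp in R4000 cells. In this pool R4000 was thus above the parental line next to the starts, while it was the lowest line over the windows as a whole. From 750 to 500 bp before the start the order was the other way, with 70.5% in the parental line and 19.2% in R4000. The pooled rise next to the starts rested on few genes. Peaks reached the last 250 bp of 2 genes in parental cells and of 3 in R4000 cells. Of the 300 bases before the start, Hoxa10 went from 0 covered to 300, and Hoxa7 from 150 to 300. Hoxa11 had 300 in both lines. Over the 1000 bp centred on the start, R4000 was lower for Hoxa9 (81 against 219 bp) and Hoxa11 (937 against 987 bp) and higher for the other genes.

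**Figure D3:**
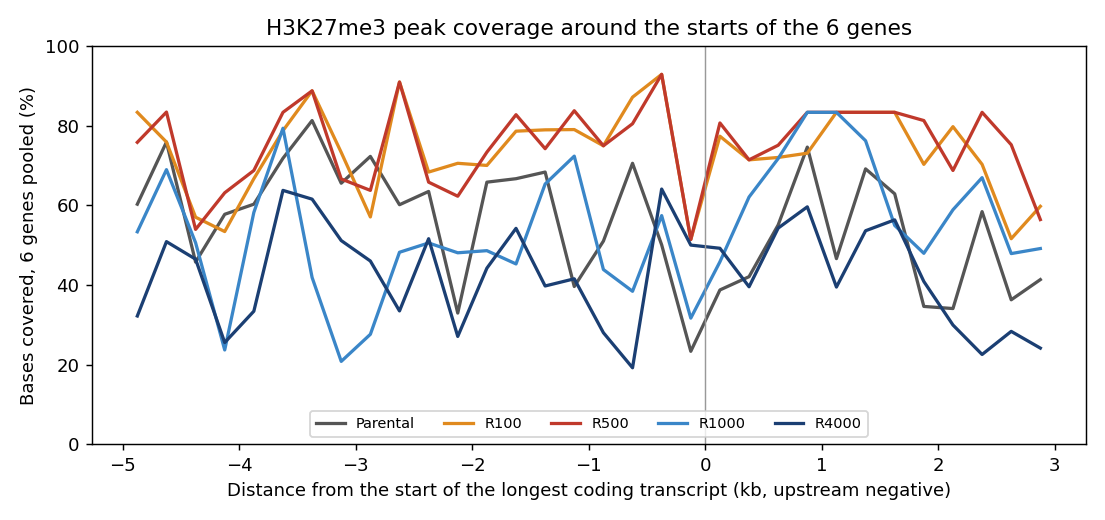
Percent of bases covered by H3K27me3 peaks (y axis), pooled over the 6 genes in bins of 250 bp, against the distance in kb from the start of the transcript with the longest coding sequence (x axis, upstream negative), with 1 line per list. Coverage dips in the parental, R100, R500 and R1000 lists just before the start, to 23.3% in the parental line and 51.4% in R100 and R500.

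CpG-rich parental bases were found again in the resistant lines more often than others. Such bases, taken as windows of 200 bp with a GC content of at least 50% and an observed over expected CpG ratio of at least 0.6, made up 23005 bp (42.6%) of the 6 windows. They were covered over 56.6% in parental cells, 83.4% in R100 cells, 81.4% in R500 cells, 62.8% in R1000 cells and 53.2% in R4000 cells. The other bases were covered over 50.8%, 63.8%, 66.5%, 42.6% and 31.9% in the same order. Of the parental CpG-rich bases, 99.5% lay in peaks in R100, 84.8% in R1000 and 71.4% in R4000, and in R500 all of them did. Of the other parental bases it was 83.5%, 59.1% and 53.0%, and 86.6% in R500. Counting new bases too, R4000 relative to the parental line was at 0.940 over CpG-rich bases and 0.629 over the rest, and R1000 at 1.11 and 0.838. In Hoxa10 the covered share of CpG-rich bases was 65.4% in the parental line and 75.6% in R4000, and that of other bases 41.8% and 29.5%. In Hoxa11 these values were 74.8% and 79.4%, and 49.8% and 40.3%. Hoxa13 differed in that its other bases were covered more than its CpG-rich ones, over 70.4% against 43.1% in the parental line and 59.8% against 41.8% in R4000. Bases in the parental line alone held 0.667 CG per 100 bp at a GC content of 37.9%, and those in all 5 lines 3.90 at 54.4%.

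The lists as a whole also differ in base composition. Outside the 6 windows the covered bases had a GC content of 51.2% in the parental list, 56.6% in R100 cells, 55.2% in R500 cells, 54.4% in R1000 cells and 55.7% in R4000 cells, with 2.96, 4.30, 3.93, 4.13 and 4.75 CG per 100 bp. The parental list was the poorest in both. The part that base composition of the libraries has in the values over the Hoxa genes was not tested.

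**Figure D4:**
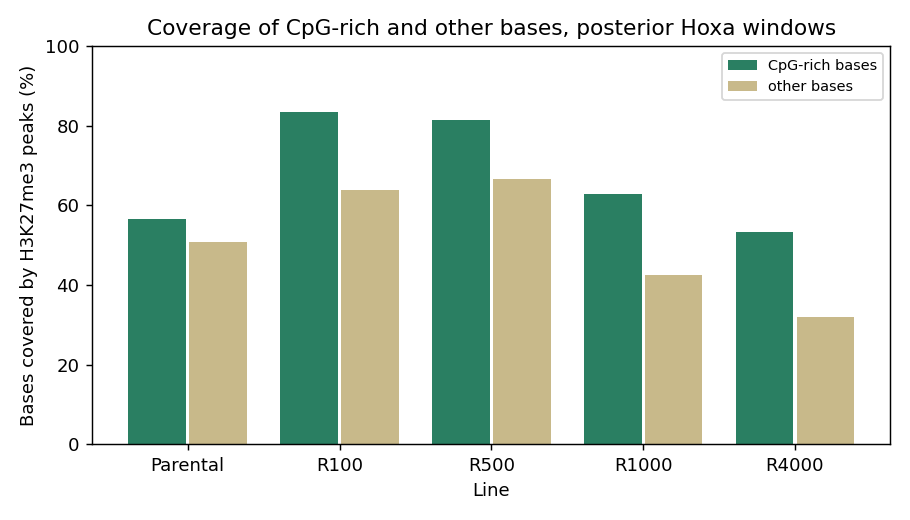
Percent of CpG-rich bases (green) and other bases (tan) of the 6 windows covered by H3K27me3 peaks (y axis) in each line (x axis), 1 list per line. The gap between the bars is smallest in the parental line, at 56.6% against 50.8%, and in R4000 it is 53.2% against 31.9%.

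Set against other genes, the posterior Hoxa genes were among the most covered, and their ratios to the parental line lay nearer to 1, by their median, than those of the genes covered in the parental line. A gene was called higher or lower in a resistant line where its covered bases differed from the parental line by at least 1.5-fold, with at least 150 bp in the higher of the pair. In R100, 1 of the 6 (Hoxa10) was called higher, against 20.2% of all protein-coding genes and 74.8% of the 1716 that were covered in the parental line. In R500, 2 (Hoxa6 and Hoxa10) were higher, against 15.5% and 73.8%. In R1000, 0 were called in either direction, against 4.63% and 21.2% called higher and 3.09% and 40.3% called lower. In R4000, 2 (Hoxa6 and Hoxa7) were lower, against 4.94% and 64.5%. No member was called higher in R4000, against 3.09% of all genes and 9.56% of the 1716, and none lower in R100 (0.679% and 8.86%) or R500 (0.773% and 10.1%). The members' median ratio was 1.41 in R100 cells, 1.41 in R500 cells, 1.02 in R1000 cells and 0.829 in R4000 cells, where the median of the 1716 genes was 2.44, 2.33, 0.846 and 0.469. A well covered window leaves little room to rise, since full coverage of Hoxa13 would be 1.64 times and of Hoxa10 1.95 times the parental value. The 21 genes outside the Hox clusters with at least 25% of the window covered in the parental line, a limit chosen after seeing the data, had median ratios of 1.40, 1.47, 1 and 0.791 from R100 to R4000. These are close to the members' medians.

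**Figure D5:**
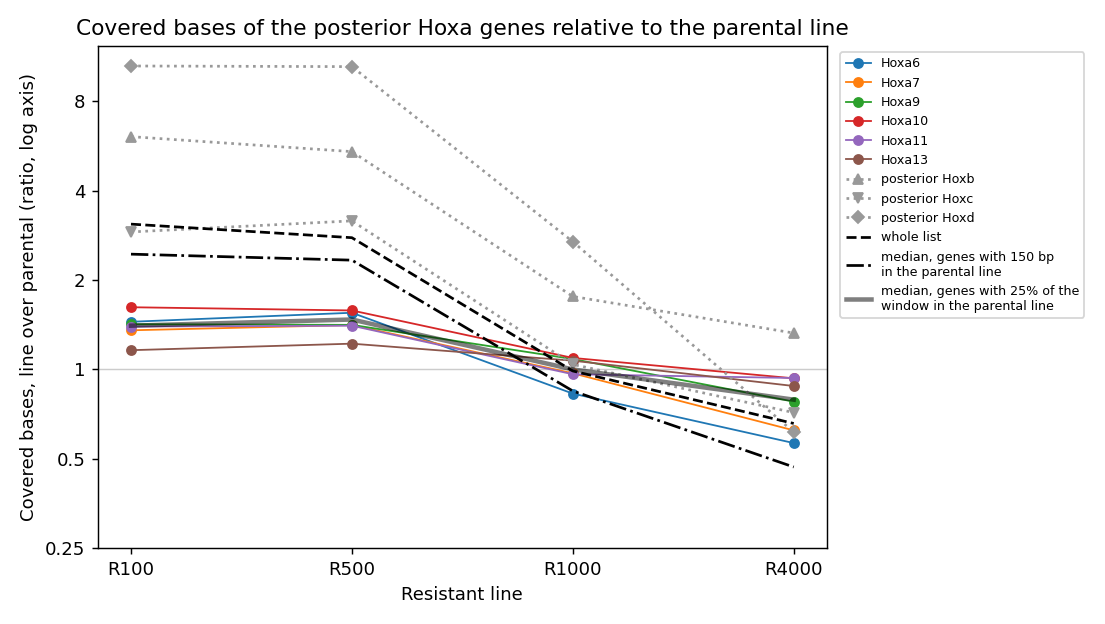
Covered bases relative to the parental line (y axis, log scale) in the 4 resistant lines (x axis) for the 6 genes (coloured points), the posterior genes of the other Hox clusters (grey), the whole list (dashed) and the medians of 2 sets of genes. The 6 genes lie between 1.16 and 1.62 in R100 and between 0.565 and 0.936 in R4000. The posterior Hoxd genes lie at 10.5 in R100, on a parental value of only 650 bp in 44.6 kb.

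By covered percent of the window, at least 5 of the 6 were among the 10 most covered of the 22380 protein-coding genes in each line. Hoxa13 ranked 1 in the parental line and R1000, and Hoxa11 ranked 1 in R100, R500 and R4000. Hoxa6 was the lowest of the 6 in each line, at rank 10 in the parental line and 37 in R4000. Ranks by covered bases, which depend on window length, ran from 2 (Hoxa10 in R4000) to 66 (Hoxa6 in R100). By that measure Hoxa13 ranked 14 in the parental line and 12 in R1000. Hoxa11 ranked 24 in R100, 27 in R500 and 9 in R4000. The genes outside the Hox clusters whose coverage over the 5 lines was nearest to the members' median were Nkx2-3, Osr2, Tlx2, Lbx1 and Foxc1, all genes of developmental transcription factors. The sum of the absolute differences in covered percent over the 5 lines was 25.9 for Nkx2-3 and 73.3 for Foxc1, with the others between. Nkx2-3 was covered over 47.5% of its window in parental cells, 70.2% in R100 cells, 73.2% in R500 cells, 57.8% in R1000 cells and 39.9% in R4000 cells.

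On the side of Hoxa6 the covered bases of the next gene, Hoxa5, all lay inside the Hoxa6 window, with 0 bp outside it in any line. Hoxa4, the gene after that, had 0, 700, 500, 0 and 0 bp covered from the parental line to R4000. On the other side the peaks ran on past the Hoxa13 window. The next 5 kb (chr6:52215875-52220874) had 2476 bp covered in parental cells, 2676 bp in R100 cells, 3100 bp in R500 cells, 1226 bp in R1000 cells and 876 bp in R4000 cells. Evx1, a homeobox gene beyond this stretch, was covered over 17.2% of its window in parental cells, 58.2% in R100 cells, 42.0% in R500 cells, 10.1% in R1000 cells and 8.10% in R4000 cells. Of the posterior genes of the other clusters, those of Hoxc were covered over 13.9%, 40.2%, 43.8%, 14.4% and 9.91% from the parental line to R4000. Those of Hoxb were covered over 5.36%, 32.6%, 29.0%, 9.43% and 7.10%, and those of Hoxd over 1.46%, 15.3%, 15.2%, 3.92% and 0.896%. In each line these shares were below that of the posterior Hoxa windows.

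Genes that work with or on Hox genes had small shares of their windows covered, of at most 2.17% among the cofactors. Of the 9 Hox cofactors of the Meis, Pbx and Pknox families, 2 had at least 150 bp in peaks in parental cells, 4 in R100 cells, 4 in R500 cells, 1 in R1000 cells and 2 in R4000 cells. These are to be read against 7.67%, 21.7%, 17%, 8.86% and 7.05% of all protein-coding genes in the same lines. Meis1 had no peak in any line. Pbx3 had 2050 bp in parental cells, 3350 bp in R100 and R500 cells, 2650 bp in R1000 cells and 1150 bp in R4000 cells, which is at most 1.62% of its long window. Of 10 genes of PRC2 subunits, 0 were covered in parental cells, 2 in R100 cells, 1 in R500 cells, 0 in R1000 cells and 1 in R4000 cells, and of 6 genes of the MLL complex 0 were covered in each line. A peak says nothing of the level of expression, which was not analysed here, and only the presence of H3K27me3 was measured at these genes.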

How the data were processed

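H3K27me3 ChIP-seq of the 5 lines was analysed. The other assays were not used here. The authors compared precipitated with input libraries, called enriched bins with Poisson statistics and deposited 1 peak list per line, whose values are positions in base pairs and carry neither counts nor scores. The submitters' processing notes name Bowtie and mm9. The aligner settings, the threshold of the lists and whether replicates were pooled are not given in the sources used here.

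Groups came from the sample labels. The lists of R100 and R500 hold each peak 2 times, so distinct peaks were used. Peak positions fell within the chromosome lengths of NCBIM37 (mm9), and genes were those of the GENCODE annotation of that build. Python 3.11.15 and numpy 2.4.6 gave the covered bases, scipy 1.17.1 the intervals and matplotlib 3.10.9 the figures. On simulated lists the covered bases of 2000 windows were checked by counting each base, and 0 differed. No differences between lines were tested, since each has 1 list. The depth is unknown, which limits every comparison of covered bases.

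The genes named are the 6 members, Hoxa4, Hoxa5, the posterior genes of the other clusters as lists, lists of cofactors, PRC2, the MLL complex, neighbours and markers of T, myeloid and erythroid cells, and the 5 genes outside the Hox clusters nearest to the members' median. Examples from these lists (Hoxa4, Hoxa5, Evx1, Meis1, Pbx3), Mir196b and the stretches described were picked after their values were seen. The members and lists were chosen with earlier results of these data known. From the parental line to R4000, at least 150 bp were covered in 1, 2, 3, 0 and 0 of 5 T-cell markers, in 1 of 5 myeloid markers in each line, and in 0, 1, 1, 1 and 1 of 3 erythroid markers, against 7.67%, 21.7%, 17%, 8.86% and 7.05% of all protein-coding genes. Of the 4 neighbours of the cluster, 2 were covered in each line except R4000, with 1. Some items of the planned gene lists are not reported here. Alternatives were other windows, peaks of 500 bp or more alone, joining of peaks within 1000 bp, lists of equal number or length, repeated entries kept, and other minimums and fold limits.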

Additional observations from a re-analysis of the deposited data

Results flagged for a closer look

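Covered bases of the 6 windows moved in opposite directions among the resistant lines. Relative to the parental line they were at 1.36 in R100 and 1.37 in R500 and above it in all 6 genes, while R4000 was at 0.770 and below it in all 6. R1000 was at 0.962, with 3 genes above and 3 below. Neighbouring windows share bases, so the 6 genes are not 6 separate outcomes. The whole lists moved the same way, with ratios of 3.09 (R100), 2.78 (R500), 0.988 (R1000) and 0.658 (R4000). Of the 21 genes outside the Hox clusters with at least 25% of the parental window covered, 20 were higher and 1 lower in R100. All 21 were higher in R500, while 18 were lower and 3 higher in R4000. With 1 list per line the difference between the lines was not tested.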

How the results depend on the processing

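The ratio of covered bases to the parental line was computed under 9 other settings of windows and peaks. Its direction in R100, R500 and R4000 was kept under each of them. In R1000 it was reversed with the window taken from the TSS to the gene end, where it was 1.04 in place of 0.962. With peaks at least 500 bp wide the ratio was 1.73 in R100, 1.74 in R500 and 0.608 in R4000. With peaks within 1000 bp joined it was 1.05 in R100 and 1.06 in R500. With the widest peaks of each list up to an equal covered length it was 1.13 in R500. With the repeated entries kept it was 2.71 in R100 and 2.74 in R500, by construction, since each peak is then counted 2 times. The cause of the other moves was not tested. The members called higher numbered 5 in R100 and 5 in R500 at the lower fold limit tried. At a limit of 2 they numbered 0 in R100 and 0 in R500, and those lower in R4000 also numbered 0. The share of other genes past either of these limits was not counted. These numbers therefore do not show whether the members differ from other genes. Full coverage would be 2.87 times the parental value for Hoxa6, 1.95 times for Hoxa10 and less for the others. Only Hoxa6 could thus be called higher at a limit of 2, so the 0 there says nothing of the rest. All 6 members stayed covered in all 5 lines under each alternative run for that count. No paired analysis was possible because there is 1 list per line and the result comes from no test. Without depth, peak height or replicates, a difference in covered bases cannot be told apart from a difference in library depth or in the calling of peaks, and leaving out a replicate was not possible.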
